A study of Vitis labrusca and Vitis cinerea and Vitis acerifolia with 56 samples.

Results

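In berries up to veraison, 271 of the 29971 genes in the deposited table (0.904%) were higher in V. acerifolia than in V. cinerea and V. labrusca with no overlap between libraries. A gene was taken when its lowest value in the 5 V. acerifolia libraries lay at least 1 log2 unit above its highest value in the 20 libraries of the other 2 species. The scale was log2(FPKM + 1), where FPKM counts the fragments mapped to a gene per length of its transcript and relative to the size of the library. The levels up to veraison chose the genes, so they are described here with no test. Only the 31 libraries harvested later gave a test independent of the rule.

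Total RNA of berries was sequenced in 56 libraries to follow how sunlight affects anthocyanin accumulation in 3 grapes. V. acerifolia is labelled a wild species, V. cinerea an American native species, and the V. labrusca libraries come from a hybrid of V. vinifera and V. labrusca. Clusters grew in sunlight or inside boxes covered with aluminium foil, and a box stayed on until pre-veraison, until veraison or throughout. Berries were taken at the young stage, at pre-veraison (2 weeks before veraison), at veraison, 2 weeks after veraison and at maturity.

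The 5 V. acerifolia libraries up to veraison were 1 library each of pre-veraison in sunlight, pre-veraison in the box, veraison in sunlight, veraison with the box removed at pre-veraison, and veraison in the box. The 10 V. cinerea libraries were young berry, pre-veraison in sunlight and in the box, and veraison in sunlight, in the box and with the box removed at pre-veraison. The 10 V. labrusca libraries covered the same stages, without veraison berries whose box came off at pre-veraison. No young berry library of V. acerifolia entered the rule, and without those of the other species 429 genes passed it. After veraison there were 5 V. acerifolia libraries (1 taken 2 weeks after veraison with the box on until veraison, and 1 mature library of each treatment), 12 of V. cinerea and 14 of V. labrusca.

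Veraison is the onset of ripening, when a grape berry softens, takes up sugar and, in coloured grapes, begins to form anthocyanins in the skin. Before it the berry is green, firm and acid, and it grows and stores acids and tannins. Wild grapes differ from cultivated ones in traits such as berry size, acidity, phenolics and disease resistance. The files do not pair the gene identifiers with names or functions, so the genes below are given by identifier or by rank and no role is given for them.

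Some libraries went against their labels. Libraries titled V. labrusca are described as V. cinerea in another entry, and the titles and organism entries were followed. For V. labrusca replicate 2 at veraison, the stage entry of both libraries reads 2 weeks later, and without them the rule found 290 genes. The same rule turned on the other species found 13 genes private to V. cinerea and 22 private to V. labrusca, and these sets were read in the later libraries against the midpoint between the lowest value of the species and the highest value of the others. In 9 of the 31 later libraries another species had a larger share of its genes above the midpoint, and these went against their label. A match to the label means only that no other species had a larger share. The 8 V. cinerea libraries that matched had 3 to 11 of the 13 V. cinerea genes above the midpoint. In the mature libraries labelled V. acerifolia from sunlight, with the box until pre-veraison and with the box until veraison, 13, 10 and 11 of the 13 V. cinerea genes were above the midpoint, but only 2, 3 and 2 of the 271 V. acerifolia genes. The 3 libraries labelled V. cinerea 2 weeks after veraison whose clusters had been boxed (box until pre-veraison, replicates 1 and 2, and box until veraison, replicate 2) had 54 to 62 of the 271 above the midpoint, and each had 1 of the 13 V. cinerea genes. The other 3 were mature libraries labelled V. cinerea or V. labrusca. The 271 genes took part in this reading, so it is no independent support for their pattern, and later results are given with and without the 9 libraries.

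The stage of the 5 V. acerifolia libraries was checked with marker genes whose identifiers were recalled from the grape literature. UFGT, which attaches glucose to anthocyanidins, was at 0 to 9.29 FPKM there, and MYBA1, its regulator, at 0 to 1.53 FPKM. GST4, which takes part in anthocyanin transport, was at 0 to 52.7 FPKM. At pre-veraison and veraison UFGT ran from 0.347 to 341 FPKM in V. cinerea and from 0 to 531 FPKM in V. labrusca. GIN1, a vacuolar invertase of young berries, was at 1580 to 1891 FPKM in the 5 V. acerifolia libraries. At the same stages GIN1 was at 741 to 2298 FPKM in V. cinerea and at 8.64 to 459 FPKM in V. labrusca. The labels give an anthocyanin concentration of 0 for all 5. They also give 0 for every young berry and pre-veraison library of the other species, and for some at veraison.

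The gap between the lowest V. acerifolia and the highest other library had a median of 1.31 log2 units over the 271 genes, with quartiles of 1.14 and 1.74. It was under 1.5 in 175 genes, between 1.5 and 2 in 49, between 2 and 3 in 28 and at least 3 in 19. The list therefore held many genes near the threshold and a small group far from it. The last gene inside had a gap of 1.002 and the nearest gene outside one of 0.998, so no break in the gaps marks the edge of the list. Against V. cinerea alone 500 genes passed, and against V. labrusca alone 966. The mirror rule, low in V. acerifolia, found 62 genes.

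The whole libraries differed in the same direction. The summed FPKM was 1483250 to 1836089 in the 5 V. acerifolia libraries and 764972 to 1306389 in the others, and over 19936 genes the median difference was 0.46 log2 units higher in V. acerifolia. The median difference of the 271 genes, which the rule holds above 1, was 2.92. After median-ratio scaling, which brought the median of all genes to 0.05, 105 of the 271 kept a gap of at least 1: 12 of the 175 genes with a gap under 1.5, 46 of the 49 between 1.5 and 2, and all 47 with a gap of 2 or more. With all libraries brought to the same total, 70 remained. In these bulk samples, a smaller share of cells that express a gene and less of its RNA per cell cannot be told apart.

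**Figure D1:**
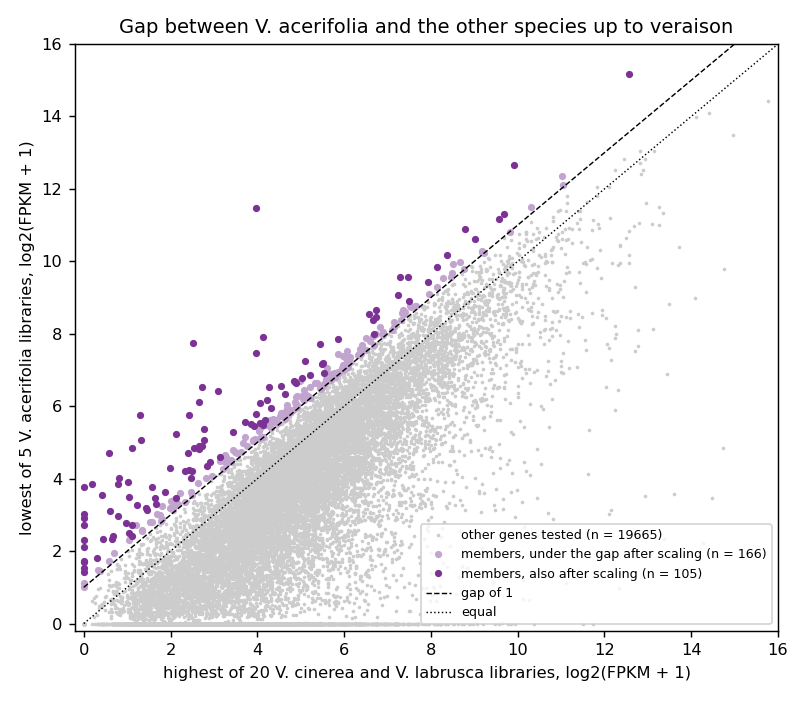
Each point is 1 of 19936 genes, with its highest value in the 20 V. cinerea and V. labrusca libraries up to veraison on the horizontal axis and its lowest value in the 5 V. acerifolia libraries on the vertical axis, both as log2(FPKM + 1). The 105 genes that also passed after scaling (dark) reach gaps of up to 7.50, while the other 166 (light) lie close above the dashed line of a gap of 1.

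The 271 genes differed widely in level, though the rule leaves out genes that are low in V. acerifolia. Their mean level in V. acerifolia had a median of 79.4 FPKM; 22 genes were under 10 FPKM, 119 were at 100 or more and 20 at 1000 or more. Most were not silent in the other species: the highest other library was at 0 in 10 genes, under 1 FPKM in 18, between 1 and 10 in 75, between 10 and 100 in 119 and at 100 or more in 49. The gap was wider where the others were near 0, with a median of 1.90 in those 10 genes and 1.25 in the 49. Together the 271 genes held 7.31% to 11.8% of the summed FPKM in the V. acerifolia libraries and 1.05% to 2.22% in the others. By the rule no member could be at 0 in any V. acerifolia library up to veraison. In each of the other libraries 33 to 126 were at 0, the highest number in 1 of 3 V. labrusca libraries that list few genes above 0. The share of all genes at 0 is not given beside these counts.

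The most abundant member, at rank 25 by gap, carried a large part of that share. It stood at 46050 FPKM in pre-veraison sunlight berries, 36633 in boxed pre-veraison berries, 55043 in veraison sunlight berries, 37608 in veraison berries uncovered at pre-veraison and 101311 in boxed veraison berries. That is 2.39% to 5.52% of all FPKM in these libraries. The 20 other libraries ran from 247 through a median of 1724 to 6084 FPKM, so the gene was also well expressed there but did not reach the V. acerifolia range.

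The largest gap, 7.50 log2 units, belonged to VIT_01s0011g05180. In the order used above it stood at 4043, 2820, 4752, 3155 and 3340 FPKM in the 5 V. acerifolia libraries, and the 20 others ran from 0 through a median of 1.95 to 14.5 FPKM. All 5 V. acerifolia values were high and differed little among themselves, and no other library came near them. After scaling its gap was 7.05.

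VIT_13s0067g02270 came next with a gap of 5.22, at 265, 287, 228, 214 and 414 FPKM. It was listed at 0 in 11 of the 20 other libraries and reached 4.75 FPKM at most, in V. labrusca. The boxed veraison library was the highest of the 5, and the other 4 lay close together. Genes 3 and 4 by gap were of other kinds: the third varied most, at 104, 306, 55.2, 52.7 and 360 FPKM with both boxed libraries high, while the fourth stayed between 25.0 and 45.0 FPKM.

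At the edge of the list, VIT_11s0052g00290 (gap 1.01) was at 2061, 2683, 2084, 1807 and 2591 FPKM against 445 to 899 in the others, with a median of 689. VIT_09s0018g01880 (gap 1.002) was at 325, 358, 274, 311 and 449 FPKM against 15.8 to 136, with a median of 67.1. Both were clearly expressed in every library, and their difference is one of degree. After scaling their gaps were 0.34 and 0.62, below the threshold.

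**Figure D2:**
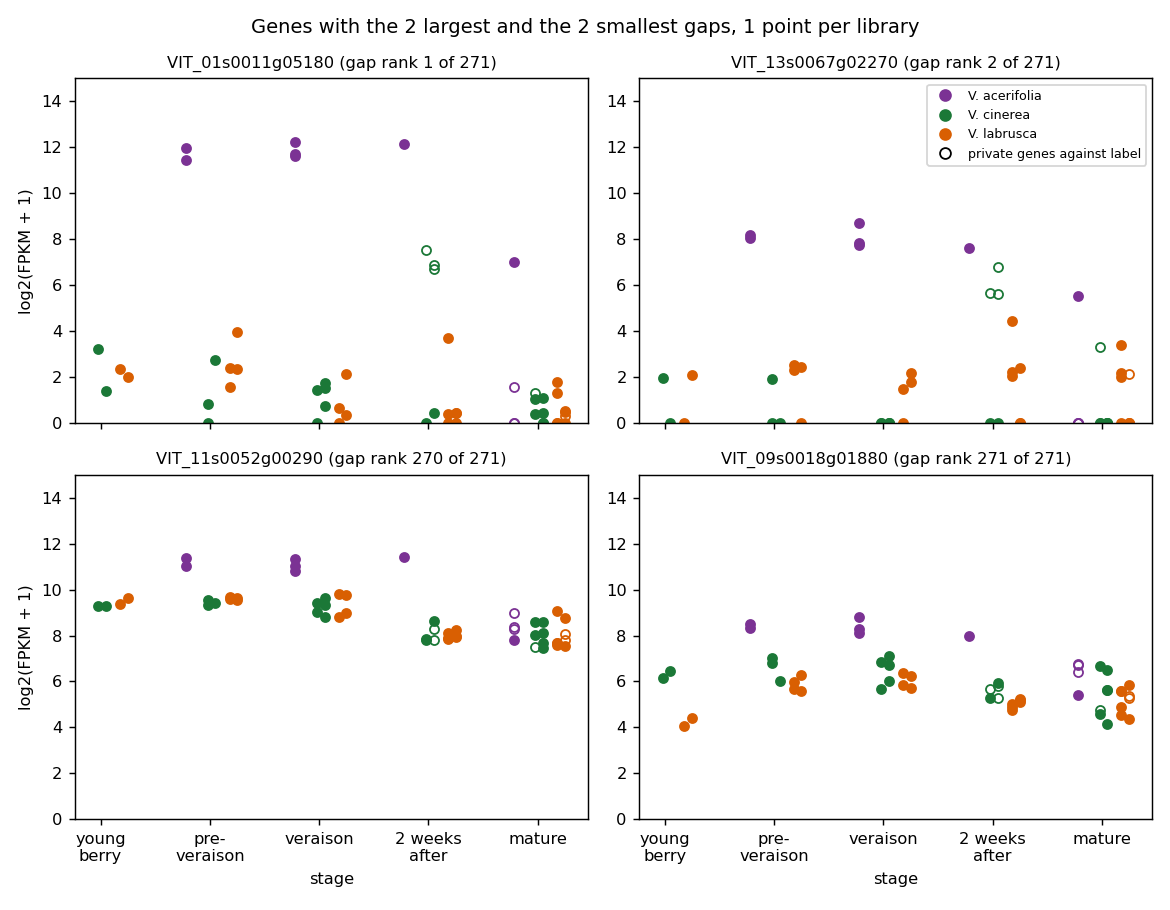
Level of the genes with the 2 largest and the 2 smallest gaps as log2(FPKM + 1) in every library, by stage; each point is 1 library, the colour gives the labelled species, and open points are the libraries that went against their label. Up to veraison the V. acerifolia points of the upper pair stand at least 5.22 log2 units above all others and those of the lower pair about 1 unit above; at maturity the points labelled V. acerifolia are lower in all 4 genes.

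Among the 5 V. acerifolia libraries, a member's highest and lowest values differed by a median of 0.79 log2 units, by at most 1 in 193 genes and by 2 or more in 14. The boxed veraison library was the highest of the 5 in 140 of the 271 genes (51.7%) and in 32.9% of all 19936 genes, and it also had the largest summed FPKM of the 5, 1836089. The lowest library was more evenly spread: pre-veraison sunlight in 74, veraison uncovered at pre-veraison in 67, boxed pre-veraison in 64, veraison sunlight in 42 and boxed veraison in 24. The highest of the other libraries was V. cinerea in 180 genes and V. labrusca in 91, most often pre-veraison sunlight V. cinerea (44 genes).

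Between the other 2 species the genes did not differ in a common direction beyond that of all genes. The V. cinerea mean was higher in 183 of the 271, by a median of 0.21, and over all 19936 genes it was higher in 65.4%, by a median of 0.23. Every V. cinerea library was above every V. labrusca library in 6 members (2.6% of all genes tested did so) and the reverse held in 1 (0.948% of all genes tested).

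By their identifiers the members were spread over the table. All 19 chromosome numbers that the identifiers carry were present, from 4 genes (0.398% of the genes with number 10) to 22 genes (1.64% of those with number 19), and 20 members had the number 0. Neighbours were few: 15 members formed 7 runs of adjacent table rows, the longest of 3 genes. None of the 138 genes in the table from 9 lists recalled from the grape literature was a member, and 63 of the 138 passed the filter on low values, so at the share of 0.904% over the table a count of 0 is not set apart from all genes. These lists cover anthocyanin, early flavonoid, phenylpropanoid, stilbene, proanthocyanidin, flavonol, light signalling, abscisic acid and invertase genes. The nearest was an early flavonoid gene with a gap of 0.64. The 11 anthocyanin genes had a median gap of -6.52, against -1.24 for all genes tested.

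After veraison, the V. acerifolia library with the box on until veraison still held most of the pattern. In it 224 of the 271 genes (82.7%) were above the midpoint between the lowest V. acerifolia and the highest other value up to veraison, 150 were at or above that lowest value, and 17 had come down to the range of the other species. Against the boxed veraison library of the same treatment, 81 members were lower by at least 1 log2 unit (12.7% of all genes were) and 10 were higher by as much (14.0% of all genes), with a median change of -0.45 against 0 for all genes. Each stage is 1 library here, so this has no replicate check. These levels are unscaled, and the summed FPKM of the later library, 1882693, was the largest of all 56. The most negative change was that of the gene ranked 3 by gap, at 360 FPKM at veraison and 5.38 FPKM later, and the most abundant member was at 101311 and then 12637 FPKM. VIT_01s0011g05180 was at 4474 FPKM, inside its earlier range.

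**Figure D3:**
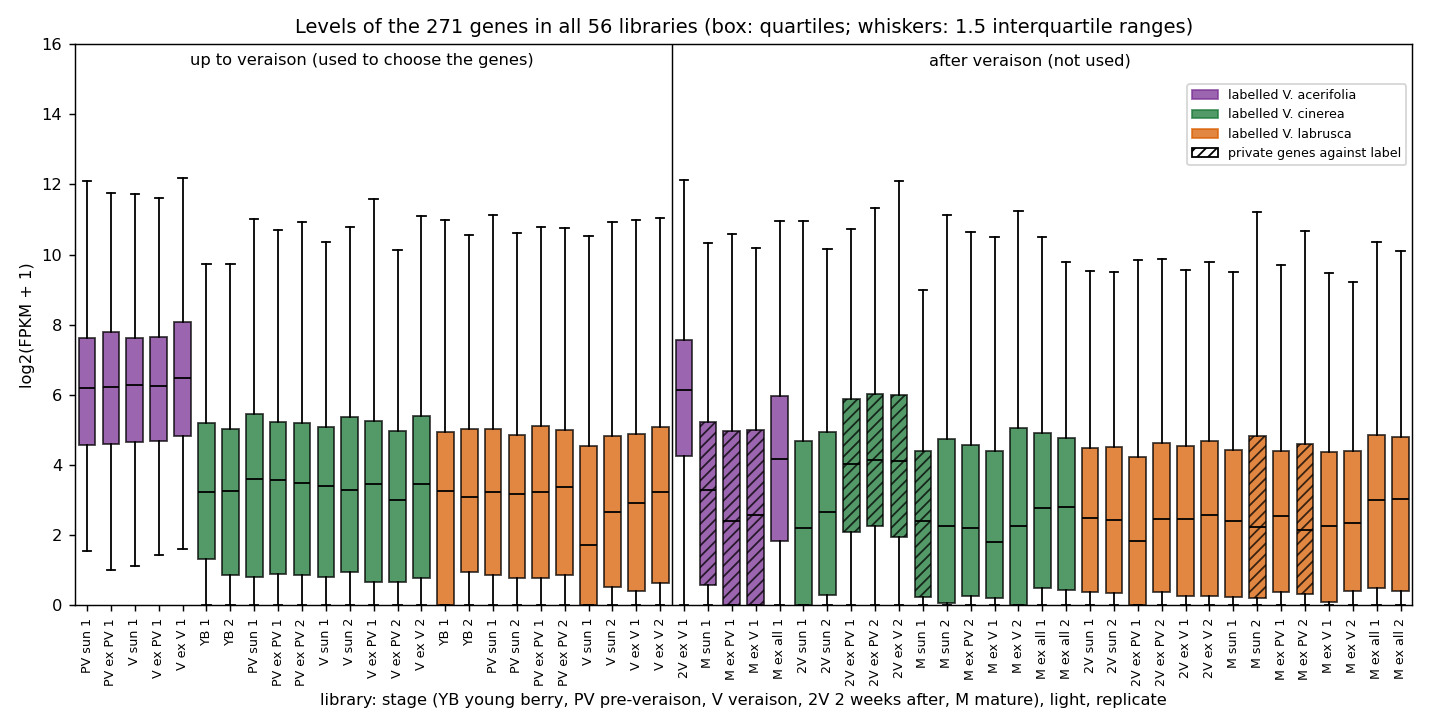
Boxes give the quartiles and the median of log2(FPKM + 1) over the 271 genes in each of the 56 libraries, with whiskers up to 1.5 interquartile ranges; colours give the labelled species and hatching the 9 libraries that went against their label. Medians near 6 are seen in the 5 V. acerifolia libraries up to veraison and in the one 2 weeks later, and medians of 4.04 to 4.17 in the V. acerifolia library boxed to maturity and in 3 libraries labelled V. cinerea.

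The difference 2 weeks after veraison was tested in libraries the rule had not used. The V. acerifolia library was set against the V. labrusca (2 libraries) and V. cinerea (1 library) groups of the same treatment, in a limma fit over all 31 later libraries that assumes the lone V. acerifolia library varies like the groups of 2. Of 254 members that passed the filter on low values, 188 were higher at a Benjamini-Hochberg adjusted p under 0.05 and 0 were lower, where 24.7% of all 18843 genes tested were higher and 1.9% lower. At an unadjusted p under 0.05, 212 members were higher (35.3% of all genes) and 1 lower (3.6% of all genes) in the same limma fit. The members' median difference was 2.51 log2 units and that of all genes 0.82. With all 271 genes and no filter, 196 were higher (22.8% of all genes). Of the 188, 97 were above 0 in all 26 V. cinerea and V. labrusca libraries of the fit and 33 were at 0 in at least 13 of them.

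The number of calls depended on the scaling. After median-ratio scaling the median of all genes was 0.04 and that of the members 1.58, and 78 of 253 members were higher and 1 lower (5.88% of all genes higher). The only V. cinerea library of that group is one of those that went against their label. Without the 9 such libraries, V. labrusca alone stood for the other species, and 209 of 243 members were higher (29.9% of all genes), with a median of 3.10 against 0.93. With scaling as well, 120 of 241 were higher (8.16% of all genes), with a median of 2.17 against 0.08. The V. cinerea library left out here had 57 members above the midpoint, and the levels of these same genes helped to set it aside. The counts and medians without the 9 libraries are therefore no independent test.

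Of the named genes, VIT_01s0011g05180 was higher by 8.58 log2 units (SE 1.03, limma adjusted p = 7.96e-05). VIT_11s0052g00290, the gene at rank 270, was at 2750 FPKM where the 20 later V. cinerea and V. labrusca libraries that matched their label reached at most 543, and was higher by 3.49 (SE 0.31, limma adjusted p = 6.7e-06). VIT_09s0018g01880, at the edge of the list, was at 248 FPKM and higher by 2.79 (SE 0.46, limma adjusted p = 0.000824). VIT_13s0067g02270, at 198 FPKM, did not pass (difference 4.31, SE 1.71, limma adjusted p = 0.0750); later libraries of the other species, those that matched their label, ran from 0 to 21.0 FPKM for it.

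**Figure D4:**
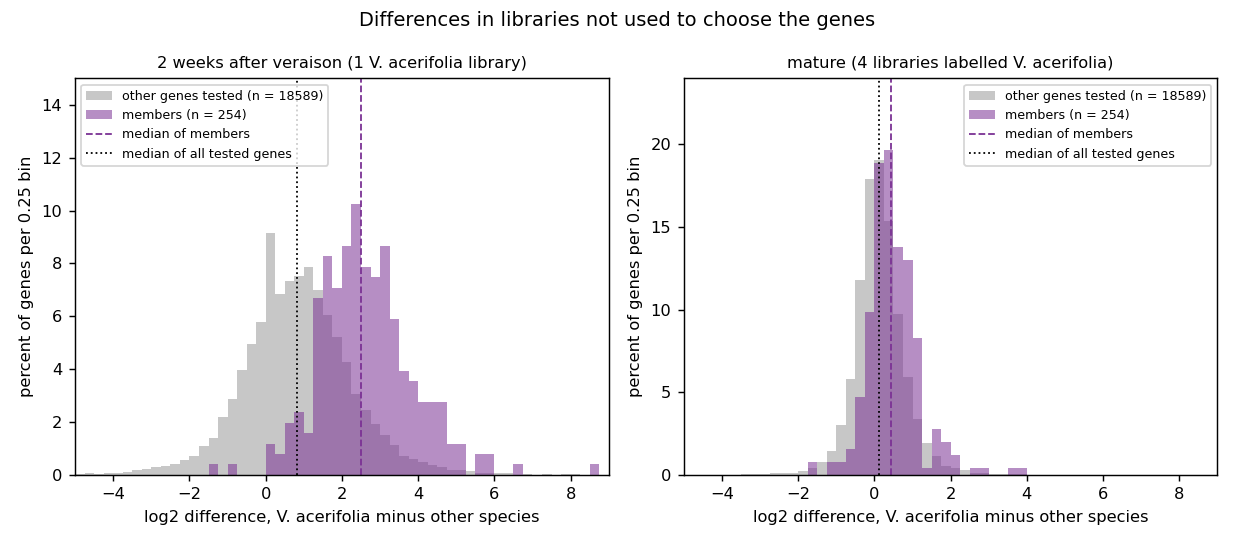
Distribution of the log2 difference between V. acerifolia and the other species in the limma fit of the 31 later libraries, for the 254 members and the 18589 other genes tested, as percent of genes per bin of 0.25. At 2 weeks after veraison the median of the members (dashed) is 2.51 and that of all genes (dotted) 0.82; at maturity they are 0.42 and 0.11.

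At maturity much less of the pattern was left under the labels. In the same fit the mean over the 4 mature treatments was higher in V. acerifolia for 36 of 254 members and lower for 0, where 5.06% of all genes tested were higher and 1.28% lower, and the members' median difference was 0.42 against 0.11 for all genes. At an unadjusted p under 0.05, 87 members were higher (17.6% of all genes) and 4 lower (6.55% of all genes) in limma. Of the 36, 34 were also called 2 weeks after veraison, where 74.0% of all 254 members tested were called. The same overlap over all genes is not given here. Genes with a gap of 2 or more made up 13 of the 36, from 40 tested. The genes that passed after scaling made up 26, from 92 tested. The count fell to 21 without the library with the box until veraison and to 22 without the one from sunlight. VIT_09s0018g01880 was higher by 1.10 (SE 0.22, limma adjusted p = 0.0127). It was at 105 FPKM in sunlight, 108 with the box until pre-veraison, 83.5 with the box until veraison and 41.2 with the box throughout. All of these libraries but the last went against their label. The 20 later V. cinerea and V. labrusca libraries that matched their label ran from 16.6 through a median of 36.5 to 102 FPKM.

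The 4 mature libraries labelled V. acerifolia did not behave alike. In the one boxed throughout 58 members (21.4%) were above the midpoint, in the other 3 the 2 to 3 given above. VIT_01s0011g05180 was at 128 FPKM in the former and at 1.99, 0 and 0 in the others; VIT_13s0067g02270 was at 44.5 FPKM and at 0 in all the others. The most abundant member was at 5864 FPKM and at 1279, 555 and 389. After median-ratio scaling 31 of 253 members were higher and 1 lower (3.68% of all genes higher). The 9 libraries against their label were set aside in part by the levels of these same genes. That choice left out the 3 mature V. acerifolia libraries where few members were high, so the counts without the 9 are no independent test. Without the 9 libraries only the one boxed throughout remained to stand for V. acerifolia, and 54 of 243 members were higher and 3 lower (3.1% of all genes higher), with a median of 0.85 against -0.17. With scaling as well, 58 of 241 were higher (3.31% of all genes).

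The mature V. acerifolia library boxed throughout and the 3 later libraries labelled V. cinerea that were against their label held nearly the same middle level. The 3 were picked because the V. acerifolia genes had the largest share above the midpoint in them. Their counts and levels thus follow in part from that choice. The median over the 271 genes was 4.04 to 4.17 on the log2 scale in these 4, and 54 to 62 members were above the midpoint in each. Any 2 of the 4 shared 43 to 49 of these genes, and 38 were above the midpoint in all 4. Of the 38, 37 were also above it in V. acerifolia 2 weeks after veraison, where 82.7% of all 271 were. The 38 had a median gap of 1.67 against 1.29 for the other members, and a median of 1.09 against 3.50 for their mean log2 level in the other species up to veraison. VIT_01s0011g05180 was at 105 to 181 FPKM in the 3 libraries labelled V. cinerea, and VIT_13s0067g02270 at 48.6 to 109 FPKM. Whether those libraries hold V. acerifolia RNA was not tested.

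In the 20 later libraries of V. cinerea (8) and V. labrusca (12) that matched their label, the genes were low, which in part follows from the reading of the labels, since that reading used these genes and set aside the V. cinerea libraries with many of them high. The median over the 271 was 1.81 to 3.04 on the log2 scale, 0 to 11 members were above the midpoint in each, and 244 were above it in none of the 20. Of the 27 that were above it somewhere, 19 were so in a V. cinerea library and 10 in a V. labrusca library. For these genes a level above the midpoint was thus not seen in V. acerifolia alone once all stages are taken. Fewer reached the V. acerifolia range up to veraison: 0 to 6 members per library were at or above its lowest value.

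Stage and box contrasts within V. acerifolia up to veraison gave few calls among the members, and those calls are given as a description. From pre-veraison to veraison, over sunlight berries and berries boxed until pre-veraison, limma at an adjusted p under 0.05 called 3 of 271 higher and 1 lower (0.366% and 0.231% of all 19936 genes). In boxed against sunlight berries it called 5 higher and 3 lower (0.446% and 0.617% of all genes). An unadjusted p under 0.05 was met by 16 members with stage (6.85% of all genes) and by 27 with the box (9.14% of all genes). The median difference was 0.02 with stage and 0.18 with the box, against 0.06 and 0.02 for all genes.

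These calls support no change in the genes named here. The 5 libraries are those that chose the members, and no V. acerifolia group has another library, so the spread came from the other species. All 4 genes called with stage and 6 of the 8 called with the box were at 0 in at least 16 of the 20 other libraries, so the fit saw almost no spread for them. With a pseudocount of 0.1 in place of 1, 1 member was called with stage and 0 with the box, where 11 met an unadjusted p under 0.05 in limma (7.76% of all genes). The values of 7 of these genes, picked by the smallest p in each direction, follow with no test. VIT_00s0258g00110 was at 4.12 and 3.29 FPKM at pre-veraison, at 13.0, 17.0 and 16.3 at veraison and at 0 in V. acerifolia 2 weeks later. VIT_00s0160g00220 was at 2.33 and 3.75 and then at 11.3, 6.15 and 6.60 FPKM. VIT_00s2855g00010 was at 10.3 and 19.0 and then at 7.28, 4.03 and 21.8 FPKM, with its boxed libraries the highest. The last value of each is that of boxed veraison berries, which did not enter the stage contrast.

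Of the genes picked for the box, VIT_03s0063g01010 was at 7.19 and 8.27 FPKM in boxed berries and at 1.92 and 4.67 in sunlight. VIT_13s0019g00370 was at 14.7 and 12.5 FPKM in the box and at 3.98 and 8.81 in sunlight. VIT_04s0008g01500 was at 27.2 and 25.1 FPKM in boxed berries, at 128 and 117 in sunlight, and at 160 in berries whose box had come off at pre-veraison. VIT_19s0093g00100 was at 2.24 and 5.19 FPKM in the box, at 10.5 and 9.05 in sunlight, and at 16.9 after the box had come off.

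**Figure D5:**
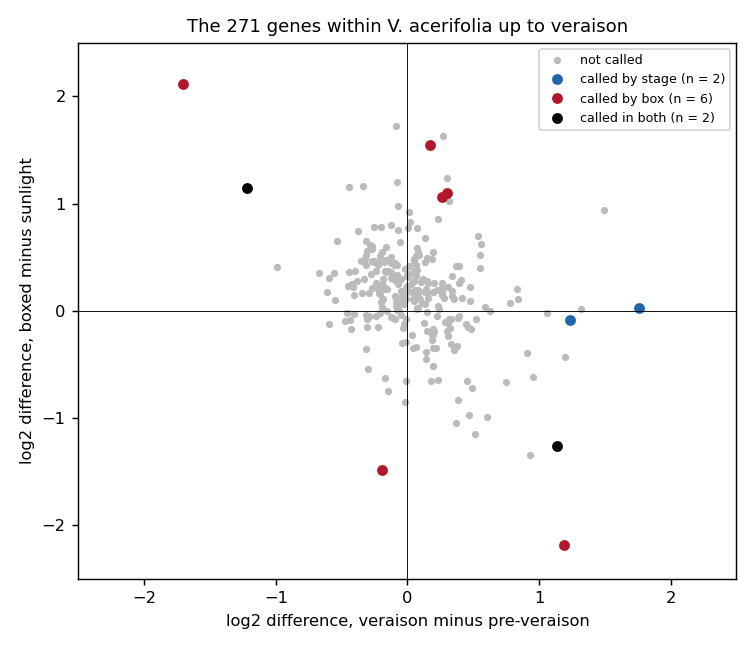
Each point is 1 of the 271 genes, with its log2 difference between veraison and pre-veraison on the horizontal axis and between boxed and sunlight V. acerifolia berries on the vertical axis; coloured points passed limma's adjusted p under 0.05 (2 with stage only, 6 with the box only, 2 in both), from a spread measured mostly in libraries at 0. Most points lie within 1 log2 unit of 0 on both axes.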

How the data were processed

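Berry RNA of 56 libraries was analysed from 1 table of FPKM values, which the authors deposited for 29971 genes, 5516 of them at 0 in every library. TopHat2 2.0.14 and Cufflinks 2.2.1 are named per the submitters' processing notes. For the genome build, the sources used here give no name. All 3 grapes were scored on the same gene models, and what sequence differences between species do to the alignment was not tested. FPKM values hold no read counts, so depth is unknown and no interval from counting can be had. Groups were taken from titles, descriptions and organism entries. The labels do not say that libraries came from separate plants, so p-values measure only the spread between these samples, which may be technical.

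The members, lists and tests were chosen with earlier results of these data known, and the names in the lists were recalled and not checked against an annotation. Values were analysed as log2(FPKM + 1) with a filter of at least 1 FPKM in at least 2 libraries of a fit. Fits used limma 3.58.1 (R 4.3.3) with 1 coefficient per group and the empirical Bayes trend, and were run over the 31 later libraries (12 residual degrees of freedom) and the 25 earlier ones (9 residual degrees of freedom), with Benjamini-Hochberg adjustment over all genes tested at 0.05. Differences are on the log2(FPKM + 1) scale, which understates those of low genes. The limma fits were tested on simulated data. Named genes were the 2 members with the largest gap, the 2 with the smallest and every member of a list, of which there were none; other members are given by rank, and those named for stage and box were added after their values were seen. Alternatives covered the pseudocount, filter, scaling, trend, replicate block and the libraries used. Sequences and gene functions were not used here.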

Additional observations from a re-analysis of the deposited data

How the results depend on the processing

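The number of genes high in V. acerifolia, 271, became 47 with a threshold of 2 log2 units, 105 with median-ratio scaling, 70 with equal totals, 429 without the young berry libraries and 743 with the V. acerifolia mean in place of its lowest library. Leaving out 1 library gave 271 to 354. The rule compares a lowest with a highest value, so leaving out a library can only keep or add genes. Members higher 2 weeks after veraison, 188, became 122 with a pseudocount of 0.1, 78 with median-ratio scaling, 86 with equal totals and 120 with scaling and without the 9 libraries against their label; leaving out 1 library gave 168 to 212. Members higher at maturity, 36, became 24 with a pseudocount of 0.1 and 26 with equal totals. They were 58 with scaling and without the 9 libraries. Leaving out 1 library gave 21 to 47. Members called with stage, 4, became 16 without the filter, 2 with equal totals and 1 with a pseudocount of 0.1; leaving out 1 library gave 3 to 7, with 7 without either V. acerifolia sunlight library. Members called with the box, 8, became 15 without the filter, 3 with equal totals, 3 without V. labrusca and 0 with a pseudocount of 0.1; leaving out 1 library gave 3 to 9, with 3 without either V. acerifolia pre-veraison library. Scaling changes the shift between whole libraries; for the other settings the cause was not tested. Of 183 recomputed counts, 160 lay within 1.5 times the reported one. They include the counts of the rule with 1 library left out, which cannot fall. The share of all genes called also moved. Higher 2 weeks after veraison were 24.7% of all genes, and 15.7% with a pseudocount of 0.1, 5.88% with median-ratio scaling and 5.96% with equal totals. At maturity 5.06% of all genes were higher, and 2.85% with a pseudocount of 0.1 and 2.72% with equal totals. With scaling and without the 9 libraries it was 3.31%. The next shares are of higher calls only, while the counts of members called with stage and box above add both directions. With stage the share called higher, 0.366%, became 1.63% without the filter, 0.090% with equal totals and 0.326% with a pseudocount of 0.1. Members called higher with stage were 3, and then 9, 2 and 1 in that order. With the box, 0.446% became 1.39%, 0.136% and 0.181% in the same order. Members called higher with the box were 5, and then 8, 1 and 0. The correlation of replicate differences between groups had a median of 0.07 in V. cinerea and 0.02 in V. labrusca. It was over 0.1 in 14 of 36 and 6 of 66 pairs of groups, and reached 0.43 and 0.74. The replicate numbers thus gave no common pairing, and whether some groups are paired was not tested. With a replicate block the counts were 194, 40, 4 and 7. The test 2 weeks after veraison could not be run without its only V. acerifolia library, nor that at maturity without the 9 libraries and the one boxed throughout. Equal totals, scaling together with the 9 libraries, and the rule against 1 species were added after seeing the data. The 9 libraries were picked in part by the levels of the 271 genes, so counts without them are no independent test. FPKM give no depth, so differences near 0 FPKM may lie below what these libraries can detect.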
